A study of Homo sapiens with 8 samples.

Results

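F-box proteins are the substrate receptors of the SCF ubiquitin ligases, and the decay of their mRNAs was followed here by metabolic labelling in THP-1, a human monocytic leukaemia line. Genes were taken whose symbol is FBXW, FBXL or FBXO followed by a number, with the most covered 3′ UTR segment of each gene standing for it, and a mean of at least 20 reads over the chase libraries was required. Of 63 such symbols in the annotation, 59 had a read and 44 passed that level (7 FBXW, 10 FBXL and 27 FBXO genes), out of 15377 genes with a read in the series. A further 15 lay below the level, FBXL7, FBXO47 and FBXW12 had a segment but no read, and FBXL21 had no segment. The lowest genes kept were FBXO15, FBXO25 and FBXO48, with means of 29.7, 29.9 and 30.7 reads. The highest genes left out were FBXO43 and FBXO24, with means of 17.3 and 13.7 reads.

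The cells received 30 µM 4-thiouridine (4sU), a uridine analog built into new RNA, for 12 h with fresh medium each 3 h, and were then washed and chased in 3 mM uridine. Cells were harvested after 0, 20 and 40 min and 1, 2, 8 and 12 h of chase, and 1 library came from cells that never received 4sU. All groups were untreated otherwise and came from the same line, and each condition had 1 library. After alkylation, incorporated 4sU is read as a T-to-C change, so each gene has a count of all reads and a count of converted reads, which are called labelled reads here. The labelled share is the percentage of a gene's reads that were labelled.

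An SCF ligase joins the scaffold CUL1, the RING protein RBX1 and the adaptor SKP1 to 1 interchangeable F-box protein, which binds the substrate, often only after the substrate has been phosphorylated. FBXW proteins bind through WD40 repeats, FBXL proteins through leucine-rich repeats, and FBXO proteins through other domains. Attachment of NEDD8 to CUL1 activates the ligase. The COP9 signalosome removes NEDD8, and CAND1 then helps to exchange the F-box protein. In leukaemic cells the family is best known for FBXW7, which marks MYC, cyclin E and MCL1 for destruction.

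Gene reads totalled 2916032 without 4sU and between 8301031 (12 h) and 11224000 (8 h) over the chase. Summed over genes, 30.6% of reads were labelled at 0 h and 5.53% at 12 h, against 0.0121% without 4sU. All 8 myeloid markers examined (among them SPI1, CEBPA and CD33) were present, at means of 275 to 3366 reads, while 10 lymphoid, erythroid and epithelial markers lay between 0 and 14.7 reads, with CD3E and HBB at 0. Since a condition is a single library, conditions were not tested against each other. The tests below ask whether the trend with time exceeds the scatter of the 7 chase libraries about a straight line (5 residual degrees of freedom). Intervals on shares and ratios cover counting error only, since reads carried no molecular identifiers.

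At the end of the pulse the median labelled share was 52.6% over the 44 F-box genes, against 44.6% over all genes tested. In 24 of the 44 genes the share was above 50%, a count that was not made over all genes. The 10th and 90th percentiles were 26.1% and 70.95% over the F-box genes and 17.4% and 64.9% over all genes tested. In the library without 4sU, 0 of 4768 F-box reads were labelled, which allows a share of up to 0.0629%. The highest share at 0 h belonged to FBXO30, which in mice takes part in muscle atrophy, at 77.6% (exact 95% interval 73.7 to 81.3%). The lowest belonged to FBXL19, a relative of the CpG-binding KDM2 proteins, at 8.33% (2.76 to 18.4%), on 5 labelled reads of 60. FBXL18 at 13.8% and FBXW5 at 14.0% were the other members under 20%.

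The label was lost from the F-box transcripts over the chase. The labelled share fell in 44 of 44 genes (edgeR quasi-likelihood test, Benjamini-Hochberg adjusted p between 5.495e-14 and 0.01615), where 95.1% of all 10564 genes tested fell, so the count sits near the background. In chase order from 0 to 12 h, the median share of the F-box genes was 52.6%, 49.3%, 45.3%, 45.5%, 37.4%, 4.05% and 1.31%. The same medians over all genes tested were 44.6%, 43.3%, 43.6%, 41.2%, 33.0%, 5.63% and 1.27%. The F-box genes thus started above the typical gene, were below it at 8 h and lay next to it at 12 h. Of the share held over the first 40 min, the median F-box gene kept 76.5% at 2 h and 8.06% at 8 h, and the median gene tested kept 82.4% and 13.4%.

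**Figure D1:**
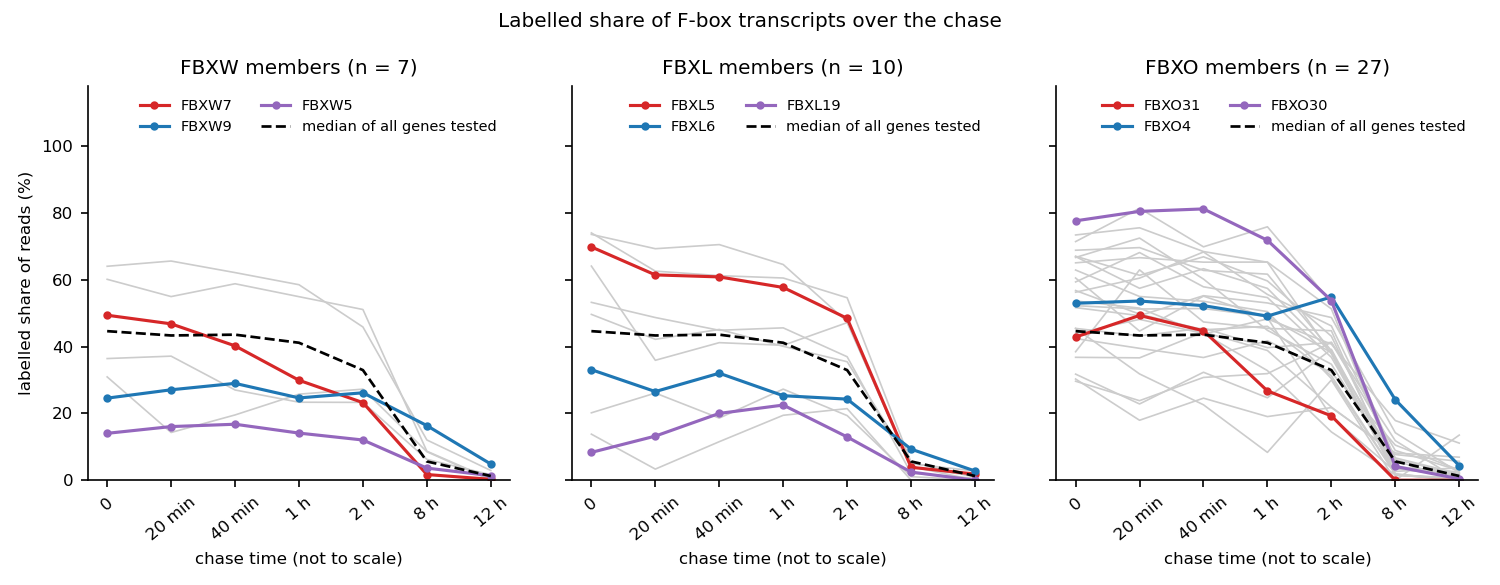
Labelled share of reads (%, vertical axis) at each chase time (horizontal axis, evenly spaced and not to scale) for the 7 FBXW, 10 FBXL and 27 FBXO genes, 1 line per gene and 1 library per time. Coloured lines are named genes, grey lines the other members, and the dashed line is the median of all genes tested, which goes through 44.6% at 0 h and 5.63% at 8 h; FBXW7 is already at 29.9% at 1 h, while FBXO4 is still at 24.1% at 8 h.

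Half-lives of the labelled share were fitted as an exponential decay to a background taken from the library without 4sU. Resolved half-lives were those with a called decline, at least 10 reads of fitted excess at the start and a log rate known to within 0.5 (1 SE). By this rule 41 of the 44 genes were resolved. Their median half-life was 2.55 h (quartiles 2.10 and 3.36 h), against 2.67 h over all 9570 resolved genes (2.12 and 3.89 h). Half-lives under 2 h were found in 9 of 41 F-box genes (22%, against 19.2% of all resolved genes), and half-lives over 4 h in 5 (12.2%, against 23.7%). The median was 3.14 h over 7 FBXW genes, 2.39 h over 9 FBXL genes and 2.53 h over 25 FBXO genes. The 95% interval lay wholly below the all-gene median in 7 F-box genes and wholly above it in 8. The matching counts over all genes were not made, so these describe the members only.

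The single exponential did not follow the early chase. The fitted half-lives imply that the median resolved F-box gene keeps 58.1% of its label at 2 h and 11.4% at 8 h, whereas the measured medians were 75.4% and 8.20%. All resolved genes together had the same form, with 59.5% implied and 81.3% measured at 2 h. A half-life therefore averages a slow early and a faster late loss, and dilution by new unlabelled RNA counts as loss.

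By the share, the shortest half-lives were those of FBXO31, FBXO10, FBXW7, FBXO11 and FBXO46. This order depends on the measure. Fits to labelled reads scaled by library size (CPM) gave FBXO5 the shortest, 1.45 h, then FBXO31 at 1.56 h. FBXO10, FBXW7, FBXO11 and FBXO46 then had 1.89, 1.88, 1.82 and 1.95 h, behind FBXO42 and FBXO45 at 1.67 h. Total levels of FBXO31, FBXO10 and FBXO46 rose over the chase. FBXO31, which targets cyclin D1 after DNA damage, had labelled shares of 42.9%, 49.3%, 44.7%, 26.7%, 19.3%, 0% and 0% over the chase, from 0 to 12 h. The share was high through 40 min, and no labelled read was left among 142 reads at 8 h, which allows a share of up to 2.11%. Its half-life was 1.26 ± 0.23 h (SE of the fit). FBXO10, a receptor for the survival protein BCL2, had shares of 43.9%, 48.1%, 43.9%, 32.8%, 14.5%, 1.62% and 0% over the same times and a half-life of 1.49 ± 0.22 h. Both are small counts, with 27 and 29 labelled reads at 0 h, and each has a same-strand neighbour in the annotation (AC010531.1 and AL513165.2) whose reads may be mixed in.

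FBXW7 was the best measured of the fast group. Its segment starts at hg19 position 153242410 of chromosome 4, on the minus strand. Labelled shares were 49.4%, 46.8%, 40.2%, 29.9%, 23.2%, 1.71% and 0.271% from 0 to 12 h, on 203 labelled reads of 411 at 0 h and 1 of 369 at 12 h. There was no early plateau, and the share was lower in each library than in the one before. The half-life was 1.65 ± 0.12 h, and it was 1.70 h when the 0 to 2 h libraries were used alone. A shorter 3′ UTR form of FBXW7 with its own segment had 44.8% labelled at 0 h, 17.3% at 2 h and 1.56% at 8 h, next to 49.4%, 23.2% and 1.71% for the full segment, which includes those reads. The shorter segment starts at hg19 position 153243971 and held 252 of the 411 reads at 0 h.

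FBXO11, the receptor for the germinal-centre repressor BCL6, had a labelled share of 62.9% at 0 h, 30.4% at 2 h and 1.84% at 8 h, with a half-life of 1.69 ± 0.17 h. Its segment overlaps MSH6 on the opposite strand. FBXO46 had 68.8% labelled at 0 h, 38.8% at 2 h and 1.48% at 8 h, with a half-life of 1.82 ± 0.24 h. The next genes in order were FBXO42, FBXO32, FBXO5, FBXO38 and FBXO45 at 1.86, 1.88, 1.99, 1.99 and 2.00 h, and their intervals overlapped those of FBXW7 and FBXO11. FBXO32 (atrogin-1, the muscle atrophy receptor) rested on only 23 labelled reads of 38 at 0 h and had an interval of 1.15 to 3.08 h.

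**Figure D2:**
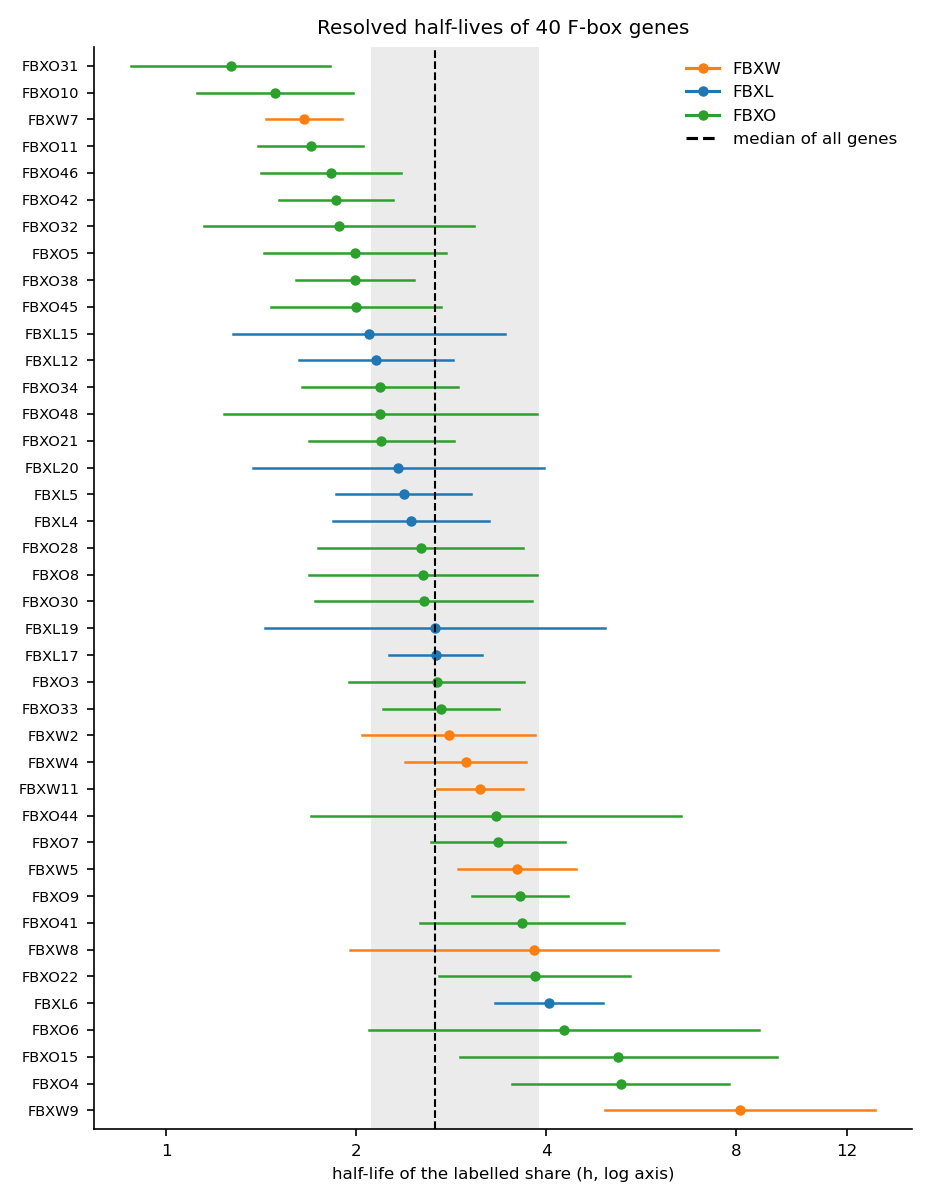
Half-life of the labelled share (h, log axis) of 40 of the 41 F-box genes with a resolved half-life, shortest at the top. Points are fitted values and bars 95% intervals of the fit, the dashed line is the median of all resolved genes (2.67 h) and the grey band its quartiles (2.12 to 3.89 h); FBXO31 is at 1.26 h and FBXW9 at 8.12 h, and most neighbours in the order overlap.

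The longest resolved half-lives were those of FBXW9, FBXO4, FBXO15, FBXO6 and FBXL6. FBXW9 had labelled shares of 24.6%, 27.1%, 29%, 24.6%, 26.2%, 16.4% and 4.84% from 0 to 12 h. The share hardly moved through 2 h and still stood at 26 labelled reads of 159 at 8 h. Its half-life was 8.12 ± 2.04 h, but its total level also fell over the chase, and a fit to labelled reads scaled by library size (CPM) in place of the share gave 4.42 h. FBXO4, which recognises cyclin D1, had shares of 53.0%, 53.6%, 52.3%, 49.1%, 54.8%, 24.1% and 4.35%, with a half-life of 5.25 ± 1.06 h. Its share was level through 2 h, then fell.

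FBXO15, known as a marker of mouse embryonic stem cells, had 22 labelled reads of 41 at 0 h, 5 of 28 at 8 h and 2 of 18 at 12 h. Its half-life of 5.21 ± 1.54 h comes from the least covered member. FBXO6, which binds N-glycosylated proteins, had 4.27 ± 1.55 h, which lengthened to 6.75 h without the 12 h library, where it had 0 labelled reads of 59. FBXL6 had 33.1% labelled at 0 h, 9.30% at 8 h and 2.76% at 12 h. Its half-life was 4.04 ± 0.41 h (5.79 h from labelled reads scaled by library size). Counts of FBXL6 equal those of the overlapping AC233992.2, so the value cannot be given to either gene alone.

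The half-life was not resolved in FBXL18, FBXO25 and FBXO16, which had 4, 15 and 10 labelled reads at 0 h. FBXO25 had labelled shares of 45.5%, 31.8%, 22.6%, 8.33%, 30.0%, 0% and 13.5%. These values follow no smooth course, on 20 to 42 reads a library. FBXO25 also had the largest adjusted p for the decline, 0.01615, and lost its call without the 0 h or the 8 h library.

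Receptors of cell cycle and signalling substrates spanned fast and slow half-lives. FBXW11, which with its paralog BTRC binds phosphorylated β-catenin and IκBα, had shares of 64.0%, 65.6%, 62.1%, 58.5%, 45.9%, 12.1% and 2.92% over the 7 times, and a half-life of 3.14 ± 0.25 h. BTRC, which does not carry the family's naming pattern, had 2.03 ± 0.46 h. FBXO5 (EMI1), an inhibitor of the anaphase-promoting complex, had 73.4%, 75.6%, 68.5%, 65.2%, 37.9%, 1.52% and 0.386%. FBXO5 held its label for 40 min and had lost nearly all by 8 h, with a half-life of 1.99 ± 0.34 h. SKP2, the receptor for p27, had 3.65 ± 0.43 h, and CCNF (cyclin F) 2.26 ± 0.46 h.

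FBXL5, the iron sensor that controls IRP2, had a half-life of 2.38 ± 0.30 h, and FBXL4, which restrains mitophagy, 2.44 ± 0.35 h. FBXL20 had 2.33 ± 0.63 h on 25 labelled reads of 39 at 0 h. FBXO7, a partner of PINK1 and parkin, was slower, at 3.36 ± 0.42 h.

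Among the others fixed for their role, FBXO45, which works with the ligase MYCBP2 rather than with CUL1, had 672 labelled reads of 1004 at 0 h (66.9%) and 15 of 888 at 8 h (1.69%), with a half-life of 2.00 ± 0.32 h. FBXO38, which controls PD-1 on T cells, had 1.99 ± 0.22 h and FBXO28 2.53 ± 0.48 h. FBXW2 had 2.80 ± 0.45 h and FBXO22, a receptor for the demethylase KDM4A, 3.83 ± 0.68 h, with NRG4 on the opposite strand of its segment. FBXW11 and FBXW4 have annotated pseudogenes (FBXW11P1 and FBXW4P1) with which reads could be shared. FBXO9, the most abundant member with a mean of 1122 reads, had 3.64 ± 0.32 h.

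Segments of 1 gene could differ in their label. The most covered FBXO9 segment and a shorter one begin at the same hg19 position, 52962629 of chromosome 6. In the shorter segment 27 of 211 reads (12.8%) were labelled at 0 h and 29 of 284 (10.2%) at 8 h. In the rest of the longer segment 395 of 784 reads (50.4%) were labelled at 0 h and 152 of 1438 (10.6%) at 8 h. Over all times from 0 to 12 h the shorter segment had 12.8%, 15.0%, 9.29%, 20.7%, 13.5%, 10.2% and 3.14% labelled, and the rest 50.4%, 46.3%, 45.0%, 47.5%, 38.0%, 10.6% and 3.04%. The shares of the shorter segment lay between 9.29% and 20.7% through 8 h, in no steady order, and were lowest at 12 h. The FBXO9 half-life covers both together.

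Annotated 3′ UTRs of the 44 measured transcripts (GENCODE 29, GRCh38) were searched on the transcript strand for the AU-rich element ATTTA, its extended form TATTTAT, which holds an ATTTA, and the Pumilio motif TGTANATA. The motifs shown here, in capitals with 10 bases on each side, are those of a fast receptor with the extended AU-rich form (FBXW7), of a fast receptor with Pumilio motifs (FBXO5) and of a slower receptor with Pumilio motifs (FBXW11).
FBXW7 TATTTAT 1: tggccaaactTATTTATgctgctaaat
FBXW7 TATTTAT 2: ttgtttgtttTATTTATagtctgattt
FBXO5 TGTANATA 1: tttgtatacaTGTAAATAtttctgtatt
FBXO5 TGTANATA 2: gtctcttgtaTGTACATAtaaaaataaa
FBXW11 TGTANATA 1: tgtattcgcaTGTAGATAtaatgtacat
FBXW11 TGTANATA 2: gtagatataaTGTACATAacagtttaac
The pair in FBXW7 lies at bases 782 and 1451 of a UTR of 1623 bases. By the segment positions both lie beyond the end of the shorter FBXW7 form, which held most FBXW7 reads at 0 h. The pair in FBXO5 lies at bases 548 and 596 of a UTR of 634 bases, close to its end. The pair in FBXW11 lies at bases 767 and 778 of 2578, so the 2 flanks printed for FBXW11 share bases.

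The motifs occurred in F-box genes at shares close to those of all genes. ATTTA occurred in 36 of 44 F-box UTRs (81.8%, against 72.9% of all genes tested), TATTTAT in 14 (31.8%, against 34.4%) and TGTANATA in 16 (36.4%, against 29.1%). The F-box UTRs were longer, with a median of 1584 bases against 1244, and a longer UTR holds more of any short motif. In the last 250 bases alone the shares were 42.5%, 10.0% and 5.00% over 40 F-box genes and 44.6%, 9.99% and 9.97% over 9297 genes. The median half-life was 2.42 h in 34 resolved F-box genes with ATTTA and 3.60 h in 7 without, next to 2.57 and 3.20 h over all genes. It was 2.67 h in 13 F-box genes with TATTTAT and 2.54 h in 28 without, next to 2.44 and 2.88 h over all genes. It was 2.55 h in 15 F-box genes with TGTANATA and 2.60 h in 26 without, next to 2.43 and 2.85 h over all genes. Presence of a motif is a description of the annotated sequence and not of a bound site.

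The labelled share at 0 h followed the T content of the transcript end. Conversions can be seen only at T positions. FBXL19, FBXL18 and FBXW5, with the lowest shares, had 14.4%, 16.4% and 18.8% T in the last 250 bases of the UTR, and FBXO30, with the highest share, had 44.8%. Across the 44 F-box genes Spearman's rho between share and T content was 0.71, and across 10392 genes 0.56. The genes share the same library, so these are descriptions. The median share was 60.5% in 29 F-box genes with over 30% T and 31.8% in 15 with less. Differences between members in labelled share at 0 h and in T content cannot be told apart here. Half-life and share at 0 h had a rho of -0.42 over 41 F-box genes and -0.51 over 9460 genes.

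**Figure D3:**
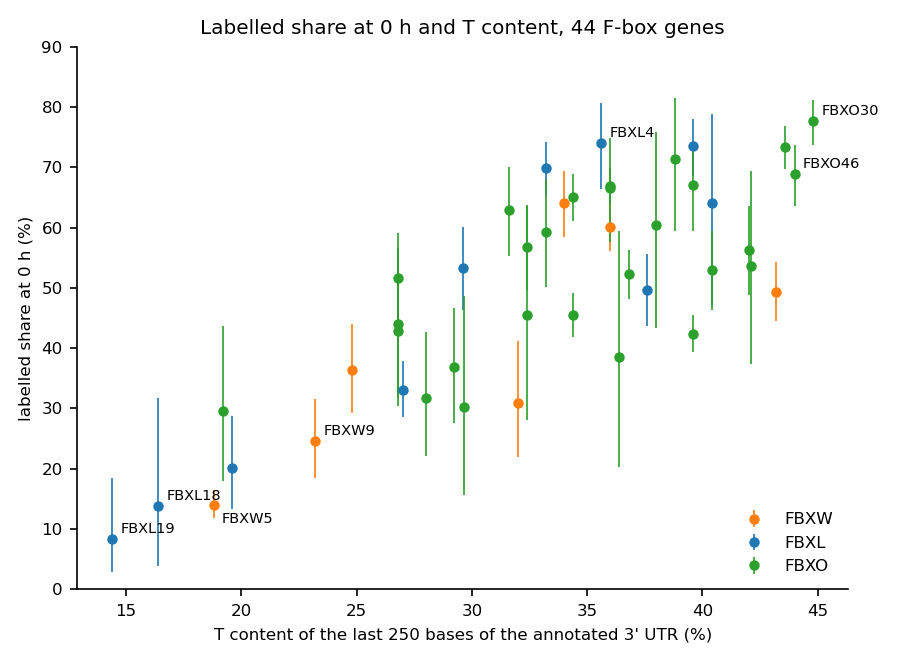
Labelled share at 0 h (%, vertical axis) against the T content of the last 250 bases of the annotated 3′ UTR (%, horizontal axis) for the 44 F-box genes, coloured by class. Bars are exact 95% binomial intervals of 1 library; FBXL19 is at 8.33% with 14.4% T and FBXO30 at 77.6% with 44.8% T.

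Total levels of the F-box genes were fitted on a line in hours, with changes given as log2 over 12 h and levels as CPM scaled by TMM factors. The level fell in 13 of 44 genes (where 23.9% of 10643 genes fell) and rose in 8 (where 27.4% rose), by edgeR's quasi-likelihood test with Benjamini-Hochberg adjusted p under 0.05. With library totals in place of TMM factors, which moved the median change of all genes to 0.18 from 0.02, 9 F-box genes fell and 10 rose (where 16.9% and 35.9% of all genes did). The median F-box change was -0.14. Summed over the 44 genes, the level was 1455, 1426, 1455, 1383, 1466, 1332 and 1277 CPM from 0 to 12 h.

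Among the largest falls were those of FBXW9, FBXO5, FBXO34 and FBXO30. FBXW9 had 20.9, 21.4, 26.0, 23.6, 23.8, 12.9 and 7.0 CPM from 0 to 12 h, a change of -1.60 ± 0.23 (SE, adjusted p = 0.000156). FBXO5 had 73.3, 62.8, 71.3, 59.1, 61.5, 32 and 29.2 CPM, a change of -1.34 ± 0.14 (adjusted p = 2.4e-05). In both genes the levels at 8 and 12 h lay below every level from 0 to 2 h.

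FBXO30 fell likewise, to 29.5 CPM at 8 h and 27.0 CPM at 12 h, against 57.8 CPM at 0 h (-1.08 ± 0.12, adjusted p = 4.3e-05). FBXO34 took another course, with 14.7, 18.5, 18.7, 17.1, 25.7, 11.9 and 7.33 CPM. It peaked at 2 h and was lowest at 12 h, and its call (-1.21 ± 0.32, adjusted p = 0.00798) was lost without the 12 h library (adjusted p = 0.233, the highest over all settings, where the lowest was 0.000202). Further falls were in FBXO15 (-1.02), FBXO28 (-0.65), FBXO42 (-0.62), FBXO45 (-0.58), FBXL4 (-0.56), FBXL5 (-0.50), FBXO33 (-0.43) and FBXW5 (-0.40). Without the 12 h library 8 F-box genes fell (where 20.7% of all genes fell), as FBXL4, FBXL5, FBXO15, FBXO34 and FBXO42 no longer passed. Their changes without that library were -0.61, -0.53, -1.25, -0.77 and -0.555. The changes of FBXO45 and FBXO33 without it were larger, at -0.98 and -0.65. FBXO30 and FBXW9 have an opposite-strand neighbour over the segment, and whether reads were counted by strand was not given in the labels.

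The rises were led by FBXL19, FBXO10, FBXL17, FBXO46 and FBXL6. FBXL19 had 7.18, 6.25, 4.92, 4.57, 6.01, 10.0 and 14.2 CPM, a change of 1.36 ± 0.24 (adjusted p = 0.000714). FBXO10 had 7.90, 6.37, 7.21, 7.31, 9.24, 15.1 and 13.0 CPM, a change of 1.11 ± 0.24 (adjusted p = 0.00224). FBXO46 had 40.3, 38.5, 40.5, 38.1, 46.2, 54.8 and 63.0 CPM, a change of 0.73 ± 0.11 (adjusted p = 0.000194). In all 3 the 8 and 12 h libraries were the highest. Without the 12 h library the change of FBXO10 was 1.72.

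FBXL17, which checks the pairing of BTB-domain proteins, had 33.5 CPM at 0 h and 49.1 CPM at 12 h (0.81 ± 0.15, adjusted p = 0.000854). FBXL6 rose by 0.63 (1.06 without the 12 h library and 0.42 without the 8 h library), FBXO31 by 0.61, FBXO9 by 0.46 and FBXO3 by 0.39. The calls of FBXO31 (adjusted p = 0.0378) and FBXO3 (adjusted p = 0.0487) were lost when any 1 library other than the 2 h library was left out. FBXL19 shares its strand with AC135048.1 over the segment.

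FBXW7 did not pass the test over 12 h (-0.35 ± 0.19, adjusted p = 0.148). Its levels were 49.2, 48.1, 49.2, 56.9, 69.0, 43.0 and 41.6 CPM, highest at 2 h. Over the 0 to 2 h libraries alone it rose by 0.58 over 2 h (adjusted p = 0.00354, while the other settings gave 0.0604 to 0.485). Its unlabelled reads had 24.9 CPM at 0 h and 53.0 CPM at 2 h, while its labelled reads had 24.3 and 16 CPM.

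Genes of each direction covered a wide range of half-lives. The 13 genes that fell had a median half-life of 2.44 h (1.86 to 8.12 h), the 8 that rose 2.67 h (1.26 to 4.04 h) and the 20 resolved genes with no call 2.68 h (1.65 to 5.25 h). Spearman's rho between half-life and change of level was -0.10 over 41 genes, given as a description. FBXO5 and FBXO46 had half-lives of 1.99 and 1.82 h with changes of -1.34 and 0.73.

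**Figure D4:**
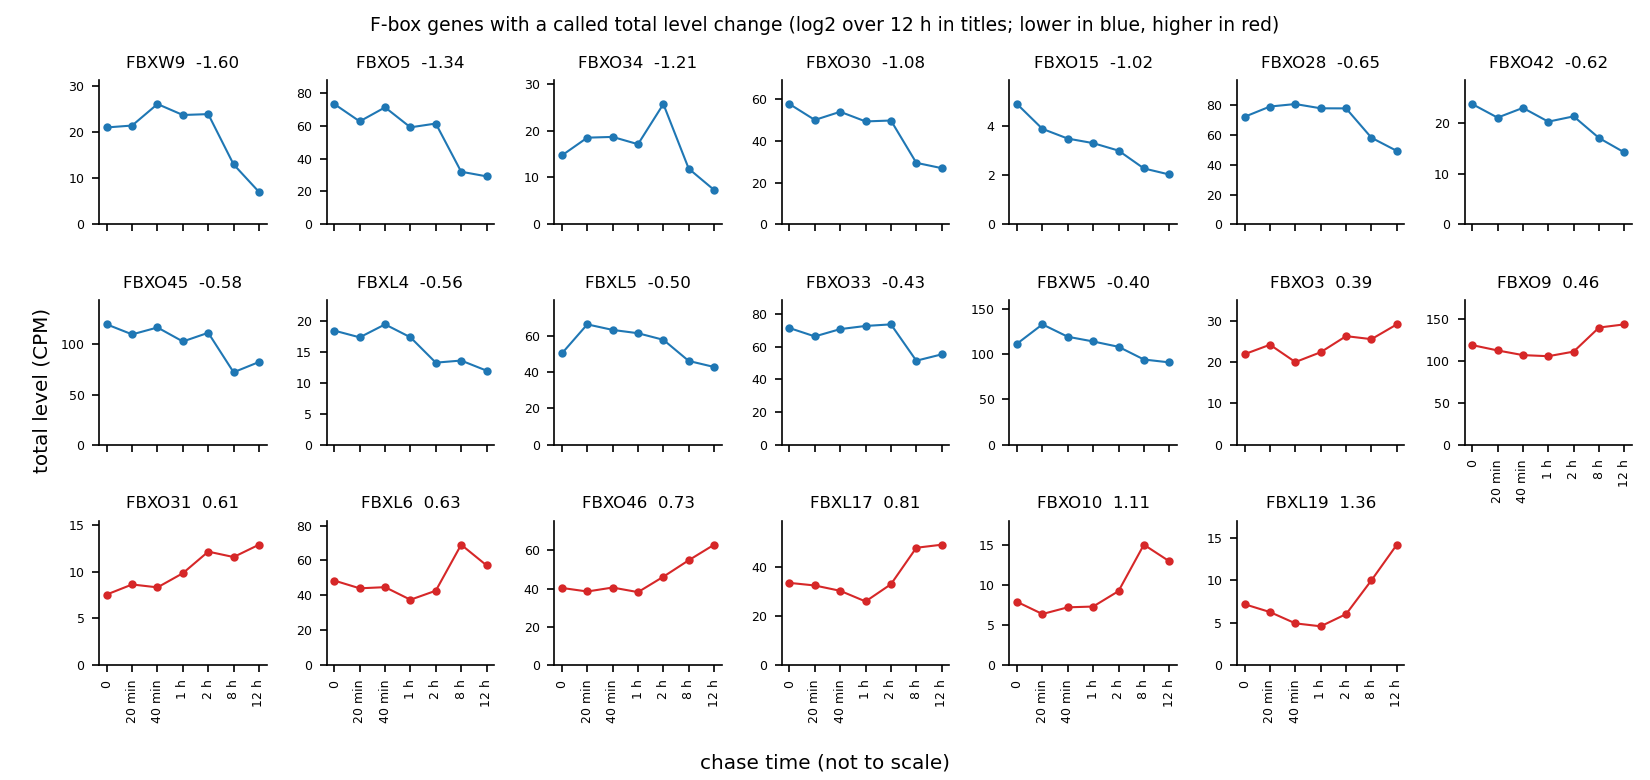
Total level (CPM with TMM factors, vertical axes starting at 0) at each chase time (horizontal axis, evenly spaced and not to scale) for 20 of the 21 F-box genes with a called change, 1 panel per gene and 1 library per point. Titles give the log2 change over 12 h; genes in blue fell (FBXW9 by 1.60) and the 8 in red rose, and FBXO34 is highest at 2 h with 25.7 CPM.

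Several F-box genes stood at other levels at 0 h than in cells without 4sU. The level was at least 2-fold higher at 0 h in 12 of 44 genes (20.3% of all genes) and at least 2-fold lower in 7 (17.5%). The median ratio of CPM, here by library totals, was 1.36 over F-box genes and 1.01 over all genes, whose 10th and 90th percentiles were 0.386 and 3.06. These are 2 single libraries of unequal depth, so the ratios describe the libraries and not the 4sU treatment.

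Among the genes past 2-fold, FBXW5, FBXO46 and FBXW4 had the most reads without 4sU. FBXW5 had 933 reads (107 CPM) at 0 h and 1287 reads (441 CPM) without 4sU, a ratio of 0.243 (95% counting interval 0.223 to 0.264). FBXO46 had 337 reads (38.7 CPM) at 0 h and 296 reads (102 CPM) without 4sU, a ratio of 0.381 (0.325 to 0.447). FBXW4 had 173 reads (19.9 CPM) at 0 h and 140 reads (48.0 CPM) without 4sU, a ratio of 0.414 (0.329 to 0.521). All 3 were lower at 0 h.

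The genes higher at 0 h had fewer reads without 4sU. FBXO33 had 597 reads at 0 h and 99 without 4sU, a ratio of 2.02 (1.63 to 2.52), and FBXO28 had 604 and 91 reads, a ratio of 2.22 (1.78 to 2.80). FBXO5 had 613 reads (70.4 CPM) at 0 h and 82 reads (28.1 CPM) without 4sU, a ratio of 2.50 (1.99 to 3.19). FBXO30 had 483 and 43 reads, a ratio of 3.76 (2.75 to 5.26), and FBXW11 317 and 38 reads, a ratio of 2.79 (1.99 to 4.02).

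On the TMM scale FBXO5 had 32 and 29.2 CPM after 8 and 12 h, next to 73.3 CPM at 0 h and 28.3 CPM without 4sU. FBXO46 had 54.8 and 63.0 CPM after 8 and 12 h, next to 40.3 CPM at 0 h and 102 CPM without 4sU. In both genes the 8 and 12 h levels were nearer to the level without 4sU than the 0 h level was. Not all genes past 2-fold did this. FBXW5 had 94.1 and 91.0 CPM after 8 and 12 h, next to 112 CPM at 0 h and 444 CPM without 4sU, and so moved away. FBXW4 hardly moved, with 22.1 and 20.65 CPM after 8 and 12 h, next to 20.7 CPM at 0 h and 48.3 CPM without 4sU. The extremes of the ratio, FBXO16 at 11 (1.85 to 449) and FBXO25 at 0.151 (0.0972 to 0.231), rest on 1 and 73 reads without 4sU.

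Other genes of the pathway, listed by function, differed widely in their half-lives. The labelled share fell in 9 of 9 genes of the SCF core and F-box genes with other names, in 11 of 11 neddylation genes, in 12 of 13 COP9 signalosome and CAND genes tested, in 11 of 11 E2 and ARIH1 partners and in 16 of 16 substrates tested. Of all 10564 genes tested 95.1% fell, so these counts sit near the background. CAND2 and CRY1 lay below the level needed, and COPS6 did not pass (adjusted p = 0.225). The lists' median half-lives were 2.35 h for the SCF core and F-box genes with other names, 3.08 h for neddylation, 4.42 h for COP9 and CAND, 3.04 h for the E2 partners and 1.86 h for the substrates. The SCF list pools unlike parts, with medians of 9.76 h over 3 core genes and 2.15 h over 6 F-box genes with other names.

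Several constant parts of the ligase held their label for long. SKP1, the adaptor that every F-box protein binds, had a half-life of 17.9 ± 2.97 h and RBX1 one of 9.76 ± 1.67 h. NEDD8 had 16.7 ± 3.48 h. The values of SKP1 and NEDD8 lie beyond the 12 h chase. At 12 h SKP1 kept 57.9% and NEDD8 56.0% of the share held over the first 40 min. Total levels of both also fell between 0 and 12 h, from 651 to 489 CPM in SKP1 and from 444 to 353 CPM in NEDD8. Their labelled reads scaled by library size therefore fell more than the shares did. CUL1 itself had 2.35 ± 0.33 h, next to the F-box median of 2.55 h. The exchange factor CAND1 had 2.19 ± 0.11 h. ARIH1, the ligase that adds the first ubiquitin for SCF, had 2.04 ± 0.13 h.

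Substrate transcripts are set here beside those of their receptors. NFKBIA, which FBXW11 recognises as phosphorylated IκBα, had 1.10 ± 0.12 h, against 3.14 h for FBXW11. MCL1 had 1.56 ± 0.07 h, MYC 1.89 ± 0.44 h and CCNE1 1.78 ± 0.28 h, next to 1.65 h for their receptor FBXW7. The total level of MCL1 rose from 551 CPM at 0 h to 1139 CPM at 2 h, while its labelled reads were 2738 and 2721. Its share thus fell over those 2 h with little loss of labelled reads, so its half-life holds dilution by new unlabelled RNA. MYC had 29.3 CPM at 0 h, 11.35 CPM at 2 h and 33.2 CPM at 12 h. Its labelled reads were 163 at 0 h and 32 at 2 h, a steeper fall than in its share (66.5% and 31.4%). The fit to the share thus understates the early loss of labelled MYC reads. BCL6 had 1.39 ± 0.13 h, next to 1.69 h for FBXO11. IREB2 (IRP2) had 1.99 ± 0.16 h, next to 2.38 h for FBXL5. CTNNB1 (β-catenin) had 2.83 ± 0.18 h, next to 3.14 h for FBXW11, and NOTCH1 2.14 ± 0.38 h, next to 1.65 h for FBXW7. Total levels of BCL6, IREB2 and CTNNB1 rose over 12 h (log2 changes of 1.55, 1.08 and 0.57). Dilution thus enters the half-lives of these 3 genes too. Of 16 resolved substrates 10 lay under 2 h and 0 over 4 h, where 19.2% and 23.7% of all resolved genes did. Total levels of those under 2 h took different courses. JUN rose from 25.5 CPM at 0 h to 211 CPM at 1 h and NFKBIA from 361 CPM at 0 h to 521 CPM at 2 h, so dilution enters their half-lives. CCNE1 had 30.3 CPM at 0 h and 25.4 CPM at 2 h.

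Total levels moved in both directions in these lists, with 5 of 9 SCF core genes and F-box genes with other names higher and 2 lower (where 27.4% of all genes rose and 23.9% fell), 3 of 11 neddylation genes higher and 3 lower, 1 of 13 COP9 and CAND genes higher and 6 lower, 3 of 11 E2 partners higher and 1 lower, and 5 of 16 substrates higher and 3 lower. Of the 3 core genes SKP1 fell, CUL1 rose and RBX1 had no call, and of the 6 F-box genes with other names 4 rose and 1 fell. SKP1 fell by 0.41 and NEDD8 by 0.40, while BTRC rose by 0.92 and FBH1, an F-box helicase, by 0.93. Receptors of other cullins were set beside the F-box genes. The 19 resolved KLHL receptors of CUL3 had a median half-life of 2.05 h and the 17 DCAF-type receptors of CUL4 one of 2.25 h, against 2.55 h in F-box genes. The total level rose in 4 and fell in 4 of 20 KLHL genes, and rose in 10 and fell in 0 of 17 DCAF-type genes, beside 27.4% and 23.9% of all genes. Differences between these receptor classes were not tested.

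**Figure D5:**
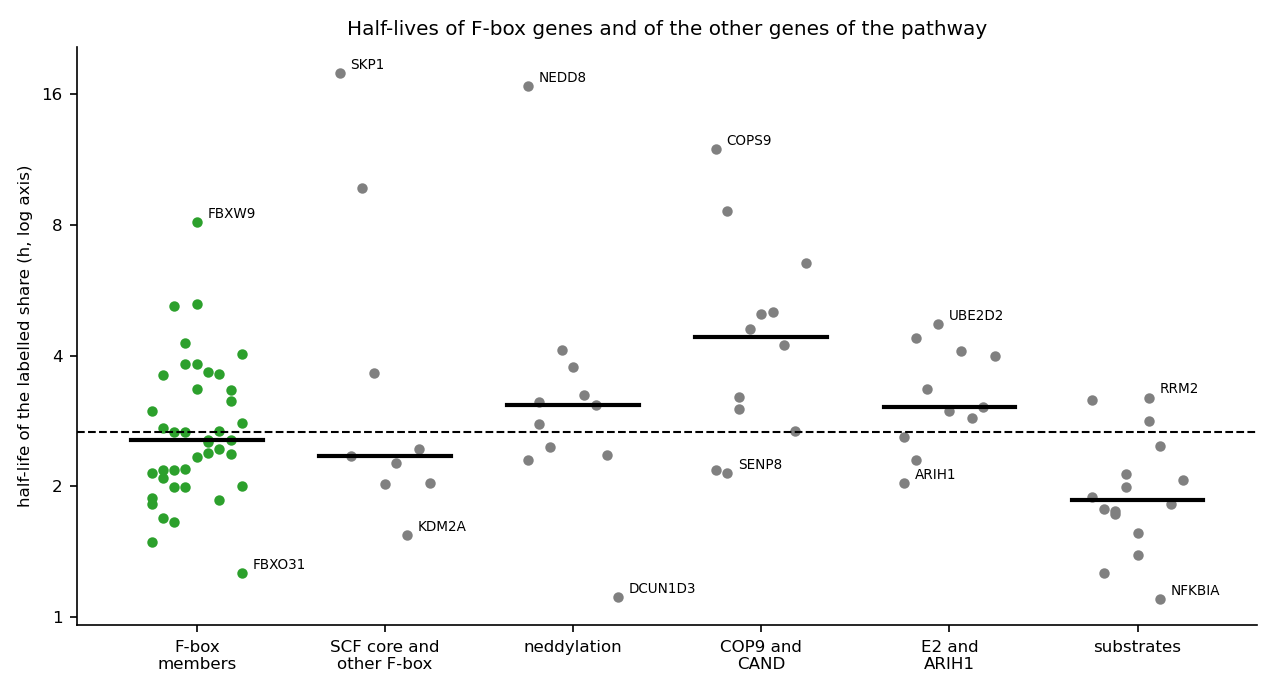
Half-life of the labelled share (h, log axis) of resolved genes in the F-box family (green) and in the other gene lists of the pathway (grey), 1 point per gene. Thick bars are list medians (2.55 h for F-box members, 4.42 h for COP9 and CAND, 1.86 h for substrates) and the dashed line is the median of all resolved genes, 2.67 h. SKP1 and NEDD8 lie highest at 17.9 and 16.7 h, both beyond the 12 h chase.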

How the data were processed

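The authors deposited raw counts per 3′ UTR segment of a transcript for 8 libraries, as all reads and as converted (labelled) reads. Per the labels' protocols, libraries were QuantSeq 3′ FWD with a Drosophila S2 RNA spike-in, not used here. Tools listed in the submitters' processing notes are Trim Galore (0.6.5) along with bcl2fastq (2.17.1.14), and the listed builds are dm3 with hg19. Not given in the sources used here are the aligner, the counter and how many conversions made a read labelled.

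GENCODE 29 named 48045 of 56570 transcripts (84.9%), and 5.65% of reads lay in unnamed segments. Left out were 3056 segments on alternative contigs and 88 genes with counts equal to another gene's. Reads in the most covered segment of each gene ranged from 2916032 to 11224000 per library. Summed over all deposited segments, which can overlap, they ranged from 7046260 to 27773214. Counting error set the precision of each share (95% exact Clopper-Pearson intervals, where counts of 0 allow up to 3 reads).

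Label decline was tested in edgeR 4.0.16 (R 4.3.3) on labelled counts against hours, with the gene's own total plus 0.5 as offset, for genes with a mean of at least 20 reads and at least 20 labelled reads. Total counts were tested against hours with TMM factors. Half-lives are binomial maximum-likelihood fits (numpy 2.4.6) with the background shrunk by 100 prior reads, kept as resolved between 0.25 and 24 h. Exact intervals and Spearman's rho came from scipy 1.17.1. 1 member is counted among the 44 but not reported here by name. Procedures were tested on simulated data. Genes described in detail were fixed by known role, by the 5 shortest and 5 longest half-lives, by the 5 largest called level changes each way, by lack of a resolved half-life and by nearness to the read minimum. The family, lists and rules were chosen with earlier results of these data known. The labels do not say whether the times came from separate cultures, so p-values may reflect technical spread only. Alternatives left out each library in turn or changed the time range, segments, scaling, filters, background and tool (DESeq2 1.42.0).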

Additional observations from a re-analysis of the deposited data

How the results depend on the processing

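The fall of the label held in 41 to 44 of 44 F-box genes with any 1 library left out, where 89.94% to 95.25% of all genes fell. FBXL18, FBXO16 and FBXO25 were the genes lost. The 0 to 2 h libraries alone carried less: the label fell in 21 of 44 F-box genes, where 29.2% of all genes (3082) fell. The fitted slope (log2 per h) over these libraries was positive in FBXO4 (0.0163), FBXO44 (0.24), FBXW8 (0.0294), FBXL19 (0.19), FBXO6 (0.31) and FBXL18 (0.61). Half-lives over those libraries were at least 1.5 times longer in 24 of 41 genes, 5 of them at the limit of the fit. The 1 to 12 h libraries alone gave a median of 2.07 h, against 2.55 h. Of 492 half-lives of members under other settings, 456 stayed within the 95% interval and 36 did not.

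Falls of total level numbered 8 to 14 of 44 with any 1 library left out, with 8 without the 12 h library, and rises 6 to 8. Over all genes 20.69% to 24.91% fell and 23.35% to 27.17% rose in these settings. Over 0 to 2 h alone, 0 of 44 F-box genes fell and 2 rose (FBXW7 and FBXO34), where 1.1% and 4.1% of all genes did (117 and 438 genes). Changes over those 2 h turned in sign in, among others, FBXO9 (-0.0524), FBXO28 (0.0824), FBXO33 (0.12), FBXL5 (0.0668), FBXL6 (-0.16), FBXL17 (-0.0188), FBXW9 (0.19), FBXO34 (0.72) and FBXL19 (-0.21). The cause was not tested. No paired analysis was possible because each condition has 1 library. Depth limits members under 100 reads, whose shares at 8 and 12 h rest on few labelled reads.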
